A study of Mus musculus with 16 samples.

Results

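Carbon tetrachloride (CCl4) is compared here with mineral oil in the liver of wild-type mice. The members are the 4 arrays labelled as wild-type with one of these agents, 2 for CCl4 and 2 for mineral oil, of 16 arrays in all. All 4 came from FVB male mice of 10 weeks, and the labels describe the arrays within each group as biological replicates. The series holds 2 arrays for each of 8 groups: wild-type mice and mice with a liver-specific knockout of LKB1, the kinase encoded by Stk11, each given CCl4, mineral oil, AICAR or saline. AICAR is a compound that activates the kinase AMPK, and saline and mineral oil are the controls. The 2 wild-type saline arrays serve below as a second control reference, and the knockout arrays as the matched comparison. The doses, the time between injection and killing, the driver of the liver deletion, the number of mice behind an array and the slides were not stated in the labels.

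CCl4 is a classic liver toxin. It is turned into a reactive radical by cytochrome P450 enzymes, mainly Cyp2e1, and these are most abundant in the pericentral hepatocytes that surround the central vein. Injury therefore starts there, stress programmes follow in the surviving hepatocytes, and stellate cells, the vitamin A storing cells of the liver, turn into contractile cells that lay down matrix.

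Values are log2 signals after background correction and quantile normalization, so a difference of 1 is a doubling. Each group has n = 2, and errors are standard errors (SE) of the fitted difference. SE and P-values rest on the spread within groups over the whole series, not only on these 4 arrays. The test was limma over 11338 genes with Benjamini-Hochberg adjustment at a threshold of 0.05. Of 25697 probes, 12719 to 13585 were detected on each of the 4 arrays, and the number of arrays limits the precision. Stk11 lay at 10.04 to 10.38 on the wild-type arrays and at 8.94 to 9.54 on the knockout arrays, which match their labels. The hepatocyte enzymes Cyp2e1 and Cyp3a11 lay between 13.01 and 16.06 on the 4 arrays, near the top of the scale. The probe of albumin (Alb) gave only 5.54 to 6.97, close to the lowest detected signals of 5.51 to 5.93, and does not measure the gene's level.

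No gene passed the test: 0 of 11338 were called (0%), and the lowest limma adjusted p was 0.351. At an unadjusted limma p under 0.05 there were 1058 genes (9.33%), 589 with a higher value after CCl4 (5.19%) and 469 with a lower one (4.14%). Both CCl4 arrays lay above both oil arrays for 2341 genes (20.6%) and below them for 2029 (17.9%), in all 4370 (38.5%). The mean difference was above 0 for 5792 genes (51.1%) and below 0 for 5546 (48.9%). The exact permutation test cannot help here, since 2 arrays against 2 give a two-sided p of at least 0.333. What follows therefore describes values and groups of genes, and no single gene is called.

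One mineral oil array stood apart. Over 5789 well-expressed probes, the SD of the log2 differences between the 2 oil arrays was 0.577, against 0.372 between the CCl4 arrays and 0.31 between the saline arrays. Oil replicate 1 was nearer to the CCl4 arrays (0.429 and 0.334) than to oil replicate 2. Oil replicate 2 was farther from both CCl4 arrays (0.626 and 0.676) and from both saline arrays (0.498 and 0.543). Without oil replicate 2, 235 genes (2.07%) were higher and 255 (2.25%) lower at the unadjusted threshold, and without oil replicate 1 the counts were 1163 and 1124. For this reason list medians are also given against single oil arrays below. List counts that leave out an array compare with the all-gene counts of that setting. These were higher without oil replicate 1 and lower without oil replicate 2 or either CCl4 array, in both directions. A fall of a list count in those settings is thus not particular to the list.

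**Figure D1:**
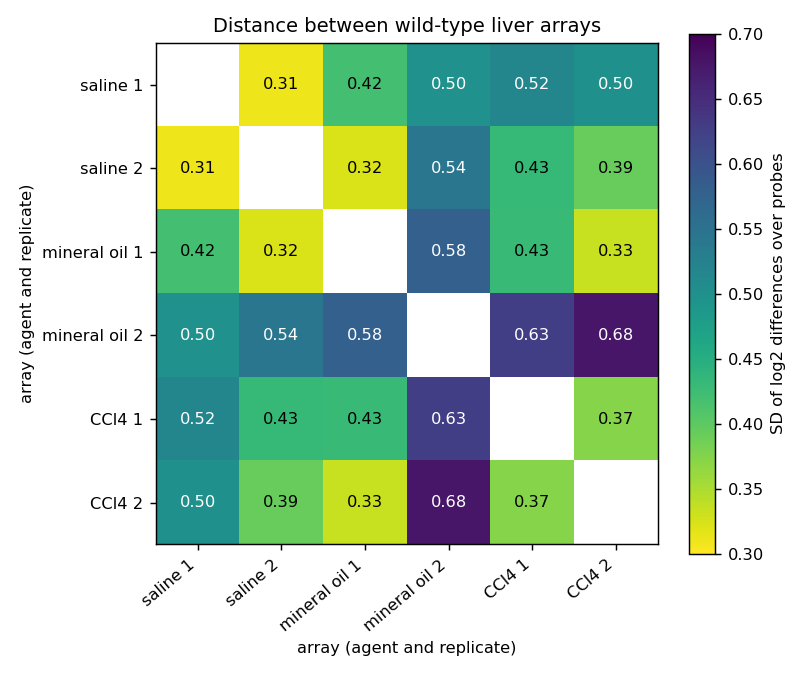
Distance between the 6 wild-type arrays of saline, mineral oil and CCl4, as the SD of log2 differences over 5789 probes that were detected throughout and had a mean log2 signal above 9; darker cells are larger distances. Oil replicate 2 has the largest distances, up to 0.676 from CCl4 replicate 2.

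The genes with the highest values after CCl4 were led by Acta2, smooth muscle actin, the textbook marker of activated stellate cells. Acta2 read 10.34 and 7.77 in oil, 11.97 and 12.40 after CCl4, and 8.97 and 9.46 in saline. Both CCl4 arrays lay above all 4 oil and saline arrays, though the oil arrays themselves differed widely. The difference was 3.13 ± 0.821, with a limma adjusted p of 0.43, and the 3 other Acta2 probes gave 1.83, 1.74 and 3.1. Timp1, an inhibitor of matrix-degrading proteases, read 9.41 and 6.88 in oil against 10.69 and 10.92 after CCl4, a difference of 2.66 ± 0.717. Tnc, the matrix protein tenascin C, read 6.76 and 6.06 against 9.01 and 9.10. The saline arrays, at 6.19 and 7.16, lay with the oil arrays for Tnc. The difference was 2.65 ± 0.58, and the other Tnc probes gave 0.40 and 2.50, so 1 of them disagrees in size.

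The 12 highest genes also held 2 of white blood cells. Prtn3, a protease of neutrophil granules, was not above background on either oil array and read 9.15 and 7.16 after CCl4, at least 5.45-fold higher. One saline array, at 7.24, lay above the lower CCl4 array for Prtn3. Ear10, an RNase of eosinophils, read 4.78 and 6.57 in oil against 8.39 and 8.59, but its family has near-identical copies that a probe may not separate. Cldn4, a tight junction protein of bile duct epithelium, read 6.62 and 5.36 against 8.58 and 8.44, while Sox9, a transcription factor of bile duct cells and progenitors, read 6.97 and 6.54 against 8.06 and 8.10. Both genes were above all oil and saline arrays after CCl4. Nupr1, a stress-induced nuclear protein, read 10.24 and 6.87 against 10.78 and 10.71, so most of its difference of 2.19 came from oil replicate 2. The others were the co-chaperone gene Dnajc12 (1.94), the degradation factor Derl3 (1.90), the cholesterol 25-hydroxylase gene Ch25h (1.87), the cathepsin gene Ctsj (1.82) and Rnf138rt1 (at least 3.35-fold).

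The genes with the lowest values were led by Gdf2, which encodes BMP9, a hormone of the TGF-beta family made in the liver. Gdf2 read 9.10 and 8.72 in oil, and 8.65 and 8.73 in saline. It was not above background on either CCl4 array, which makes it at least 9.88-fold lower. The 2 oil and 2 saline arrays lie close together, but the wild-type AICAR arrays read 9.49 and 5.98, so 1 array without CCl4 was low as well. The limma adjusted p was 0.391. In the knockout the Gdf2 difference was 0.16, and the test of the difference between genotypes did not call it. Slc1a2, a glutamate transporter of the innermost pericentral hepatocytes, read 7.45 and 10.31 in oil, and 10.82 and 10.11 in saline. It too was not above background after CCl4, at least 9.65-fold lower, and its 3 other probes gave -2.10, -0.43 and -2.83. Inmt, an indole N-methyltransferase, read 12.25 and 14.09 against 9.0 and 11.21.

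Upp2, a uridine phosphorylase of the liver, read 10.68 and 13.23 in oil against 10.65 and 8.55, so its arrays barely failed to overlap. The chemokine gene Ccl25 (at least 4.70-fold lower), Lrit1 (at least 3.79-fold) and the class II MHC gene H2-Ea (at least 3.34-fold) were not above background after CCl4. For H2-Ea, an effect of CCl4 cannot be told apart from a difference in MHC genes between the mice. Tmie differed by -2.92 and Atg3, an enzyme of autophagy, by -2.60, but for both genes 1 saline array lay low as well (6.5 and 7.36). Atg3 also read 7.86 and 7.40 on the knockout oil arrays, near its 7.52 and 7.41 on the wild-type CCl4 arrays. Ccl25 read 5.01 on knockout oil replicate 1 and Lrit1 read 5.19 on knockout oil replicate 2. Low readings of these genes thus also occurred without CCl4. The second probes of Atg3 and Ccl25 gave -0.24 and -0.15, so the probes of these genes disagree. Over these 24 genes the limma adjusted p ran from 0.351 to 0.52. Of the 12 highest, 11 were also above both saline arrays, and of the 12 lowest, 11 were also below both. Of the 1058 genes at the unadjusted threshold, 730 (69%) lay apart from both saline arrays in the same direction.

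**Figure D2:**
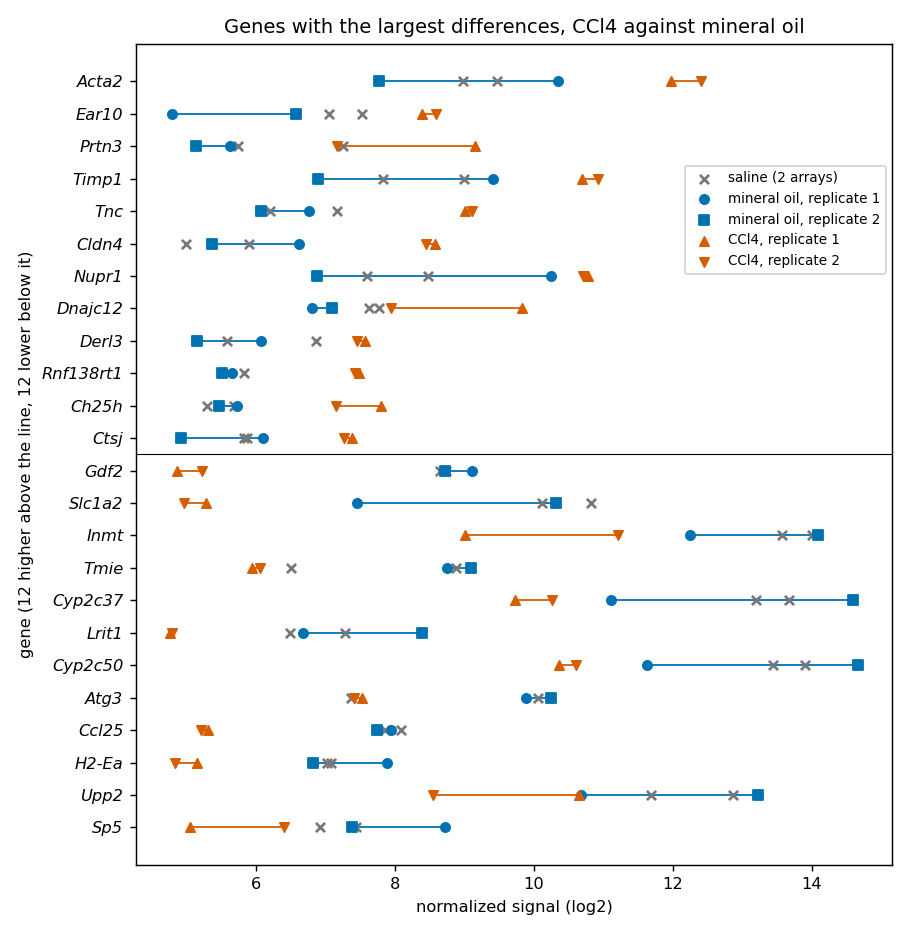
Normalized log2 signal of the 12 genes with the largest higher and the 12 with the largest lower values among those at an unadjusted limma p under 0.05 whose arrays do not overlap; circles and squares are the oil replicates, triangles the CCl4 replicates, crosses the saline arrays. Acta2 lies at 11.97 and 12.40 after CCl4, and Gdf2 at 4.85 and 5.22, below all oil and saline arrays.

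Pericentral hepatocyte genes formed the list with the lowest median. Of 25 measured members, 23 had lower values after CCl4 and 2 had higher ones, with a median log2 difference of -1.10 against 0.01 over all genes. There were 12 members lower at the unadjusted threshold (48%, against 4.14% of all genes), and 0 higher. For 16 members both CCl4 arrays lay below both oil arrays (64%, against 17.9%). The CCl4 mean lay below the saline mean for 19 of the 25, against 5203 of all 11338 genes. The median was -1.03 against oil replicate 1, -0.84 against oil replicate 2 and -0.81 against saline. The count of 12 became 7 without oil replicate 2, 10 without oil replicate 1, 6 without CCl4 replicate 1 and 13 without CCl4 replicate 2. In whole liver, fewer pericentral cells and less RNA per cell cannot be told apart.

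Oat, ornithine aminotransferase, read 13.58 and 14.81 in oil, 14.59 and 14.21 in saline, and 11.81 and 12.19 after CCl4. The groups do not overlap, and Oat differed by -2.19 ± 0.349, with a limma adjusted p of 0.351. Glul, glutamine synthetase and the classic marker of the innermost hepatocytes, read 7.35 and 7.09 in oil and 5.98 and 5.84 after CCl4 with a dim probe, a difference of -1.31 ± 0.25. Sp5, a target of Wnt signalling, read 8.72 and 7.38 against 5.04 and 6.40. Cyp2e1, the enzyme that activates CCl4, read 15.57 and 15.82 in oil against 13.01 and 14.86, a difference of -1.76 ± 0.481. CCl4 replicate 1 was the lower array for Cyp2e1, as it was for Cyp1a2, which read 13.72 and 13.73 against 11.93 and 13.25. Across the list, CCl4 replicate 1 had a median of -1.30 against the oil mean and CCl4 replicate 2 one of -0.62. Over 17 alternative settings, the Oat difference ran from -2.81 to -1.57 and its limma adjusted p from 0.0137 to 0.876. It was called, together with Slc1a2, only without oil replicate 1.

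**Figure D3:**
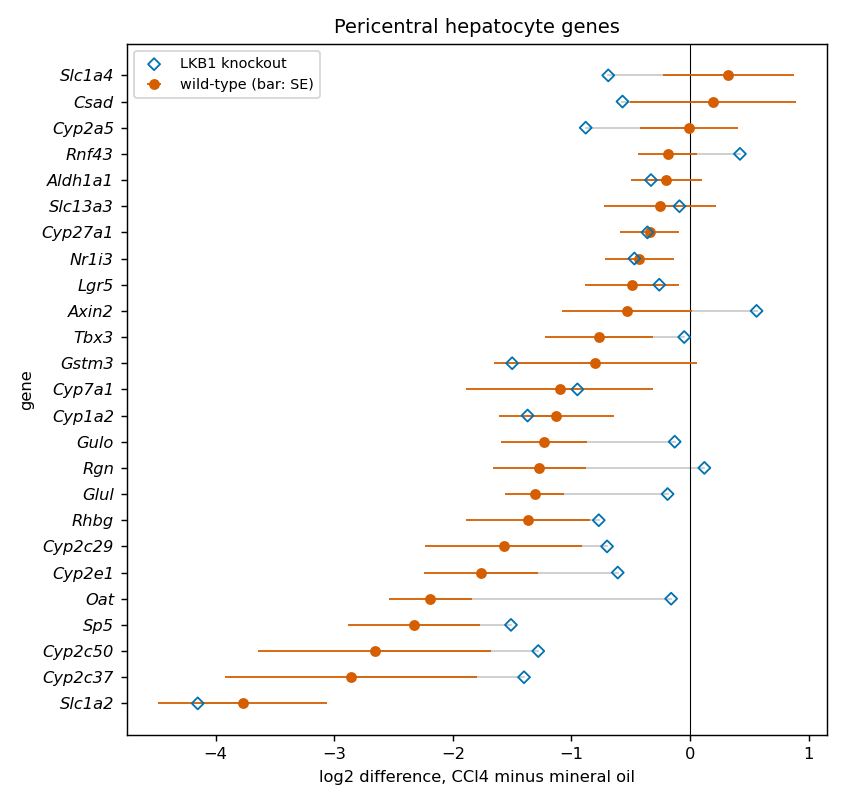
Log2 difference between CCl4 and mineral oil for the 25 measured pericentral genes, in wild-type liver (filled, with SE) and in the LKB1 knockout (open). In the wild-type 23 of 25 lie below 0, down to Slc1a2 at -3.77. Oat and Glul lie at -0.16 and -0.19 in the knockout. Glul read only 5.54 and 5.14 on the knockout oil arrays, below their lowest detected signals of 5.93 and 5.67, so it could not show a fall there.

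Other enzymes of drug metabolism had lower values too, and several of them also stand in the pericentral list. Of 26 measured phase I enzymes, 20 had lower values and the median was -0.37 (-0.23 and -0.47 against oil replicates 1 and 2). At the unadjusted threshold 7 were lower (26.9%, against 4.14% of all genes), all but Cyp2c39 and Cyp3a25 shared with the pericentral list. That count was 1 without oil replicate 2, 1 without CCl4 replicate 1 and 4 without CCl4 replicate 2. Cyp2c37 read 11.11 and 14.59 in oil against 9.73 and 10.26 after CCl4, and Cyp2c50 read 11.63 and 14.67 against 10.36 and 10.61. These enzymes and their relatives Cyp2c29 and Cyp2c39 have similar sequences, so probes may share signal. Cyp3a11, the main drug-oxidizing P450 of mouse liver, differed by only -0.46 ± 0.216. The nuclear receptor gene Nr1i3 (CAR) differed by -0.43 ± 0.29 and its target Cyp2b10 by 0.57 ± 0.747. Of 26 conjugation enzymes 17 had lower values, with a median of -0.34, which was -0.05 against oil replicate 1 and -0.32 against oil replicate 2. Periportal hepatocyte genes, of the opposite zone, had a median of -0.32, but it was 0.04 against oil replicate 1 and -0.62 against oil replicate 2. At the unadjusted threshold 0 of 20 members were lower, and 5 without oil replicate 1.

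Chaperones and folding enzymes of the endoplasmic reticulum (ER) had higher values. When unfolded proteins collect in the ER, the sensors ATF6, IRE1 (through XBP1) and PERK (through ATF4) switch on such genes. Of 27 measured members of the ATF6 and XBP1 arm, 26 had higher values and 1 a lower one, with a median of 0.47. Both CCl4 arrays lay above both oil arrays for 16 of them (59.3%, against 20.6% of all genes). The CCl4 mean lay above the saline mean for 24 of the 27, against 6135 of all 11338 genes. At the unadjusted threshold 11 were higher (40.7%, against 5.19%). That count fell without oil replicate 2 and without CCl4 replicate 1, as did the all-gene count. Against the oil mean the list median was 0.62 for CCl4 replicate 1 and 0.32 for CCl4 replicate 2. The median was 0.44 against oil replicate 1, 0.62 against oil replicate 2 and 0.71 against saline.

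Part of this list shares a promoter sequence. The list members were chosen as genes of the ATF6 and XBP1 arm, so this sequence describes the list, not the response to CCl4. Matched by symbol, 23 of the 27 members have a promoter in the RefSeq table of the mouse assembly GRCm38.p6, from 250 bases before to 50 after the gene's start. The ER stress element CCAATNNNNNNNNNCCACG, searched on both strands, is in 9 of these 23 (39.1%) and in 14 of 8464 promoters of all tested genes (0.165%). Its short part CCACG, which overlaps the element, is in 18 of 23 (78.3%) and in 49.5% of all. The promoters of 4 members are shown because they carry the element, with its CCAAT and CCACG parts in capitals: Creld2 and Derl3, at the top of the list, Hspa5, the classic target, and Hsp90b1, chosen because it holds 2 copies. They are Creld2 at chr15:88819396-88819695 on the plus strand, Derl3 at chr10:75893148-75893447 on the plus strand, Hsp90b1 at chr10:86705395-86705694 on the minus strand and Hspa5 at chr2:34771840-34772139 on the plus strand, each 5′ to 3′ along its gene. Where the element lies on the opposite strand these parts read ATTGG and CGTGG.
Creld2: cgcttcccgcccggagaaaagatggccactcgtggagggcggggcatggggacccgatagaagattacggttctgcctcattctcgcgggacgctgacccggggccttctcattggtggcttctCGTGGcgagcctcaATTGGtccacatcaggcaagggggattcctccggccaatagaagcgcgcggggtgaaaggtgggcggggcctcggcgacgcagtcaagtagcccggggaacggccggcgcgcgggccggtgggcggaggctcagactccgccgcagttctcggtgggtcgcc
Derl3: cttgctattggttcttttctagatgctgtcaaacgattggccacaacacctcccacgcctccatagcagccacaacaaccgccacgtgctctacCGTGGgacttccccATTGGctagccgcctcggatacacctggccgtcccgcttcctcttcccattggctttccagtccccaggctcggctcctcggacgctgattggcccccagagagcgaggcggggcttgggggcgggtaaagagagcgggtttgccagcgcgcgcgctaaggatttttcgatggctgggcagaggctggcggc
Hsp90b1: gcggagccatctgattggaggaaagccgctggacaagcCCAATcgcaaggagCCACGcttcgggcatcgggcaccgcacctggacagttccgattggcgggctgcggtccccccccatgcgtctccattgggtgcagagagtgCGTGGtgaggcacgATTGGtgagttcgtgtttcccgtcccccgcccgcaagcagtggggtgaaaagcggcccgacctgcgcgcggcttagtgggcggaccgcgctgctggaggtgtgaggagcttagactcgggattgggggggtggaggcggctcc
Hspa5: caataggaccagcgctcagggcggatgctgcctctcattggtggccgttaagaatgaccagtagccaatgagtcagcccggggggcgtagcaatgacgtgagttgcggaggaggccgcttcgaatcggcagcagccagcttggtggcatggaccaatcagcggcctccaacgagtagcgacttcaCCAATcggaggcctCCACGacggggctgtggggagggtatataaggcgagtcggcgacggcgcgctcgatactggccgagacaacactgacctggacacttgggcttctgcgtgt

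Among these 4 genes, Creld2, an ER protein that helps disulfide bonds to form, had the clearest values: 11.73 and 10.16 in oil, 11.39 and 10.76 in saline, and 12.92 and 12.48 after CCl4. Its difference was 1.75 ± 0.47, and its second probe gave 1.94. Derl3, which moves misfolded proteins out of the ER, read 6.07 and 5.14 against 7.57 and 7.45. Hspa5, the chaperone BiP, read 8.27 and 8.04 in oil, 7.80 and 7.36 in saline, and 8.89 and 8.52 after CCl4. Hsp90b1, the chaperone GRP94, read 13.71 and 13.48 against 14.36 and 14.08, and for each of these 4 genes both CCl4 arrays lay above the oil and saline arrays. Hyou1, a helper of BiP, differed by 1.80 ± 0.385, from 6.87 and 6.65 to 8.47 and 8.65. Its saline arrays, at 7.63 and 7.69, lay between, and against them the difference was 0.90. The knockout oil arrays of Hyou1 read 8.67 and 7.88. Herpud1 was the member with a lower value.

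**Figure D4:**
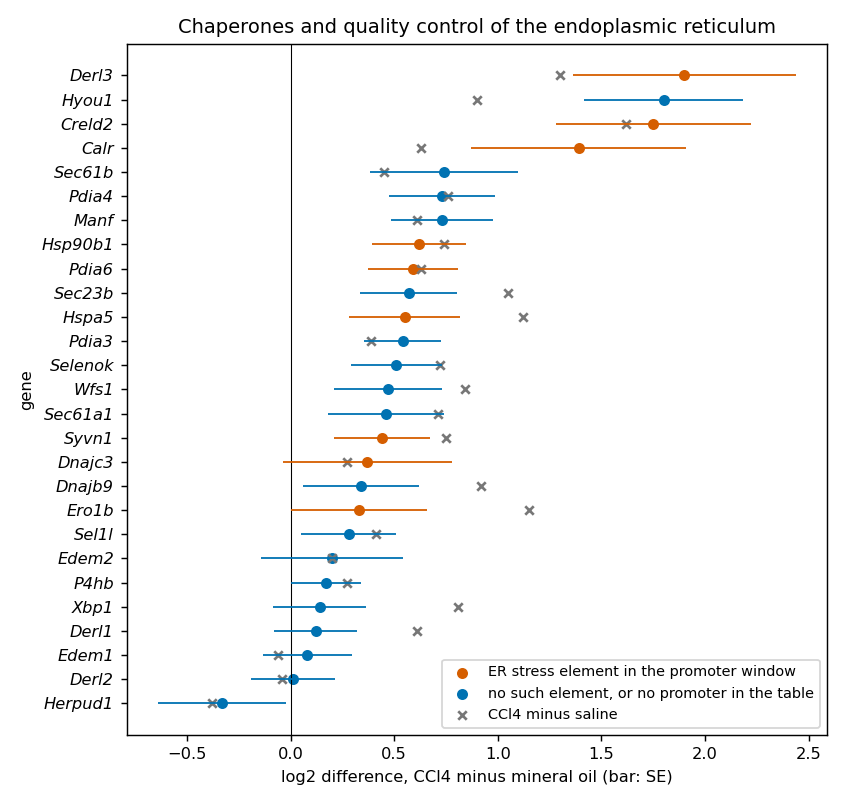
Log2 difference between CCl4 and mineral oil (points, with SE) for the 27 measured genes of the ER list, and between CCl4 and saline (crosses); orange marks the 9 genes whose promoter window holds the ER stress element. All but 1 gene lie above 0, led by Derl3 at 1.90.

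The ATF4 arm, which answers amino acid shortage and ER stress, held 22 higher and 7 lower values among 29 members, with a median of 0.36 (0.21 and 0.50 against oil replicates 1 and 2). There were 8 higher at the unadjusted threshold (27.6%), but 0 were without oil replicate 2 or without CCl4 replicate 1, and 3 without CCl4 replicate 2. Over all genes 5.19% were higher at that threshold. Ddit3, the death-promoting factor CHOP, read 10.03 and 8.43 in oil, 9.54 and 9.61 in saline, and 11.04 and 10.57 after CCl4. Atf3, a stress-induced factor, read 8.51 and 6.28 against 9.28 and 8.98, and Psat1, an enzyme of serine synthesis, read 7.39 and 6.08 against 8.25 and 7.86. For all 3 genes oil replicate 2 was the lowest array of oil, CCl4 and saline. Fgf21, a stress hormone of hepatocytes, read 7.34 and 5.30 against 7.51 and 7.75.

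Cytosolic heat shock genes had 16 higher and 3 lower values among 19, with a median of 0.30 that was 0.33 and 0.20 against oil replicates 1 and 2 and 0.12 against saline. Of the 19, 5 were higher at the unadjusted threshold (26.3%), 1 without oil replicate 2 and 2 without CCl4 replicate 1. The share over all genes was 5.19%. Bag3, a co-chaperone, read 11.65 and 11.47 in oil, 12.11 and 11.78 in saline, and 12.22 and 12.37 after CCl4, a difference of 0.73 ± 0.21. Hsph1, a chaperone of the HSP110 family, read 11.22 and 11.18 against 11.91 and 11.68. The heat shock element GAANNTTCNNGAA, read on both strands, is in the promoter window of 4 of 16 members (25%) and of 0.508% of all tested genes. The 4 are Hsph1, Chordc1, Hspe1 and Hspd1, and only Hsph1 was at the unadjusted threshold. As in the ER list, the element describes the list, not the response to CCl4.

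Genes that build ribosomes in the nucleolus had higher values whichever oil array they were read against. Of 21 measured members 18 had higher values, with a median of 0.43, which was 0.39 and 0.42 against oil replicates 1 and 2 and 0.37 against saline. At the unadjusted threshold 5 were higher (23.8%), and the count ran from 4 to 7 when single arrays were left out. Of all genes 5.19% were higher at that threshold. Nop58, a core protein of the snoRNA particles that modify ribosomal RNA, read 9.97 and 9.53 in oil against 10.56 and 10.99 after CCl4. Its difference was 1.03 ± 0.266, and both CCl4 arrays lay above both saline arrays, at 9.64 and 10.20. Nip7, a factor of the large subunit, differed by 0.96 ± 0.24, Nop56, the partner of Nop58, by 0.93 ± 0.264 and Nob1, the nuclease that finishes 18S ribosomal RNA, by 0.84 ± 0.222. In the knockout the median of the list was 0.02.

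Stellate cell and matrix genes did not move as 1 block. Of 35 measured members 27 had higher values, with a median of 0.28, but it was -0.01 against oil replicate 1 and 0.59 against oil replicate 2. At the unadjusted threshold 5 were higher (14.3%), and 12 without oil replicate 1. These 5 were Acta2, Timp1, Tagln, Loxl2 and Ccn2, while 5.19% of all genes were higher at that threshold. Tagln, an actin-binding protein of smooth muscle, was not above background in oil and read 6.87 and 6.80 after CCl4, at least 2.18-fold higher. Ccn2, a matricellular growth factor, read 10.58 and 9.86 in oil against 11.67 and 11.65. Loxl2, a collagen crosslinking enzyme, was at least 1.52-fold higher. Col1a1, the main fibrillar collagen, read 8.21 and 6.61 against 7.82 and 8.89, so its arrays overlap.

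Cytoskeleton genes had higher values in 26 of 27 members, with a median of 0.66, which was 0.20 against oil replicate 1, 1.11 against oil replicate 2 and 0.54 against saline. The unadjusted threshold was passed by 5 higher ones (18.5%), 0 without oil replicate 2, 1 without CCl4 replicate 2, 3 without CCl4 replicate 1 and 21 without oil replicate 1. Among all genes 5.19% were higher at that threshold. S100a6, a calcium-binding protein, read 9.24 and 7.58 in oil, 7.70 and 8.38 in saline, and 10.03 and 9.87 after CCl4. S100a11, of the same family, read 12.51 and 10.73 against 13.43 and 13.45, and Tuba1b, an alpha tubulin, read 14.13 and 13.47 against 14.44 and 14.79. The size of this list's shift is thus set largely by which oil array it is read against.

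Acute phase proteins, which hepatocytes secrete in inflammation, had 19 higher and 7 lower values among 26, with a median of 0.25 (0.31 and 0.26 against oil replicates 1 and 2). Higher at the unadjusted threshold were 6 (23.1%), and 0 without oil replicate 2 or without CCl4 replicate 1. The all-gene share was 5.19%. CCl4 replicate 1 was the higher array for the genes named next. Saa1, serum amyloid A, read 7.63 and 7.71 in oil against 9.66 and 8.89, and Orm2, an orosomucoid, read 11.75 and 11.62 against 13.37 and 12.48. Apcs, serum amyloid P, read 11.74 and 11.65 against 13.45 and 12.23. The Saa and Orm genes have close copies that probes may not separate. The knockout median of this list was 0.35.

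Metallothioneins, which bind zinc and copper, showed the same split between CCl4 arrays. Mt1 read 13.95 and 14.16 in oil against 15.79 and 14.52 after CCl4, but both saline arrays, at 15.23 and 15.13, lay above the second CCl4 array. Mt2 read 6.79 and 6.90 against 9.44 and 6.96. Lcn2, lipocalin 2, read 15.11 and 13.21 against 15.52 and 15.43. Hmox1, heme oxygenase and a target of the oxidant sensor NRF2, read 9.36 and 8.68 against 9.77 and 9.78, a difference of 0.75 ± 0.404. Of 26 NRF2 and glutathione genes 16 had higher values, with a median of 0.11 (0.08 and 0.20 against oil replicates 1 and 2) and 0 higher at the unadjusted threshold.

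Markers of inflammatory cells had higher values against oil replicate 2 more than against oil replicate 1. All 11 measured monocyte markers had higher values, with a median of 0.78 that was 0.17 against oil replicate 1 and 1.26 against oil replicate 2, and 0 were at the unadjusted threshold. That count was 3 without oil replicate 1 and 2 without CCl4 replicate 2. The summed linear signal of the monocyte list was 49800 and 27900 in oil and 48300 and 51100 after CCl4. Neutrophil markers had 11 of 14 higher, with a median of 0.51 (0.31 and 0.76 against oil replicates 1 and 2), and summed to 40000 and 13000 in oil against 53300 and 51600. Most of each neutrophil sum was Lcn2, at log2 15.11 and 13.21 in oil and 15.52 and 15.43 after CCl4. Lcn2 is also in the acute phase list, so these sums do not measure neutrophils alone. Lymphocyte markers had 8 of 10 lower, with a median that was -1.02 against oil replicate 1 and 0.45 against oil replicate 2. The 16 Kupffer cell markers had a median of 0.20, which was -0.05 against oil replicate 1 and 0.49 against oil replicate 2. The 12 bile duct markers had one of 0.37 (0.11 and 0.60), and the 28 endothelial markers one of 0.15 (0.08 and 0.11). The sinusoidal gene Emcn read 7.39 and 7.10 in oil against 8.26 and 8.03, and its saline arrays lay at 8.31 and 8.06. The part of these cells in the other lists was not tested. Among chemokine and cytokine genes, Ccl6 read 7.95 and 7.15 in oil against 9.50 and 8.45, and Cxcl1, which attracts neutrophils, read 11.82 and 11.84 against 12.76 and 12.31.

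**Figure D5:**
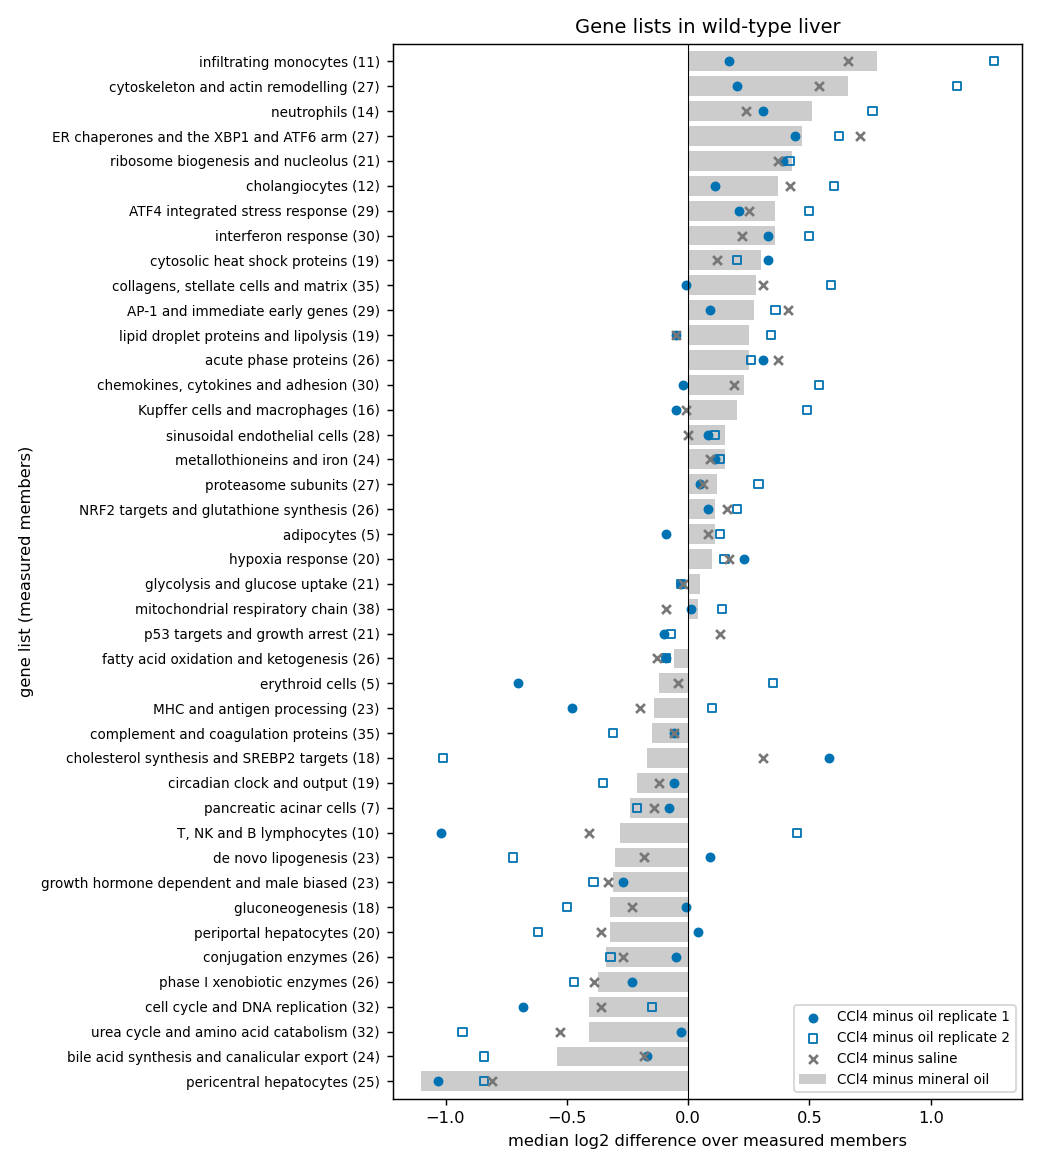
Median log2 difference of each of 42 gene lists in wild-type liver: bars, CCl4 minus the mean of both oil arrays; filled circles and open squares, CCl4 minus each oil array; crosses, CCl4 minus saline. The pericentral list (-1.10), the ER list (0.47) and the ribosome biogenesis list (0.43) are among the lists that keep their side of 0 against all references. The cholesterol list goes from 0.58 to -1.01.

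Enzymes of amino acid breakdown and the urea cycle had lower values in 31 of 32 members, with a median of -0.41. The median was -0.03 against oil replicate 1, -0.93 against oil replicate 2 and -0.53 against saline. At the unadjusted threshold 9 were lower (28.1%), 0 without oil replicate 2, 2 without either CCl4 array and 18 without oil replicate 1. Lower at that threshold were 4.14% of all genes. Agxt, the glyoxylate-detoxifying aminotransferase, read 11.66 and 11.96 in oil against 10.46 and 11.24. Prodh, proline dehydrogenase, read 10.51 and 11.38 against 10.05 and 9.74. Bile acid synthesis and export genes had lower values in 22 of 24, with a median of -0.54 that was -0.17 against oil replicate 1 and -0.84 against oil replicate 2, and 3 lower at the unadjusted threshold (0 without oil replicate 2, 9 without oil replicate 1). Cyp7a1, the rate-limiting enzyme of bile acid synthesis, read 12.14 and 13.93 against 11.99 and 11.89, and Abcb11, the bile salt export pump, read 11.96 and 12.27 against 11.14 and 11.63. Both saline arrays of Abcb11, at 11.66 and 11.45, lay within or near the CCl4 values.

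Cholesterol synthesis had no direction: the median of 18 genes was 0.58 against oil replicate 1 and -1.01 against oil replicate 2. The gluconeogenic enzyme genes G6pc (10.76 and 12.57 in oil, 10.90 and 10.86 after CCl4) and Pck1 (8.17 and 9.58, then 9.02 and 7.54) showed no separation. Cell cycle genes had lower values in 26 of 32, with a median of -0.41 that was -0.68 against oil replicate 1 and -0.15 against oil replicate 2. At the unadjusted threshold 1 was lower, 3 without oil replicate 2 and 2 without CCl4 replicate 2. The count of higher ones was 1, and 0 without oil replicate 2 or CCl4 replicate 2, and 4 without oil replicate 1. The lower one was Plk1, a mitotic kinase, which read 8.91 and 8.85 in oil, 8.97 and 9.06 in saline, and 7.71 and 7.36 after CCl4. The 4 oil and saline arrays of Plk1 lie close together, and its difference was -1.35 ± 0.321. Cdkn1a, the cell cycle inhibitor p21, read 12.30 and 11.81 in oil, 12.56 and 12.65 in saline and 12.76 and 12.87 after CCl4. Ccnd1, cyclin D1, read 14.25 and 12.38 against 13.54 and 14.37, so its arrays overlap.

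In the knockout, CCl4 against oil also gave 0 called genes, with 403 at the unadjusted threshold (3.55%). The test of the difference between genotypes called 0 as well, with 463 (4.08%). The pericentral median was -0.57 in the knockout, with 22 of 25 lower, and 3 members were at the unadjusted threshold for the difference between genotypes. Over the list the difference between genotypes had a median of -0.6, with 16 members below 0 and 9 above. Oat stayed at 15.88 and 16.10 in oil and 15.81 and 15.85 after CCl4 in the knockout, near the top of the scale. Whether its signal still follows the RNA level there was not tested. Its difference between genotypes was -2.04 ± 0.494, with a limma adjusted p of 0.997. Slc1a2 had lower values in both, by -3.77 in the wild-type and -4.15 in the knockout. Interferon-induced genes had opposite signs in the 2 genotypes: 22 of 30 had higher values in the wild-type (median 0.36) and 29 of 30 lower ones in the knockout (median -0.76). The wild-type median was 0.74 for CCl4 replicate 1 and 0.02 for CCl4 replicate 2 against the oil mean, so its sign rests on CCl4 replicate 1. The difference between genotypes was at an unadjusted limma p under 0.05 for 15 of the 30 (against 4.08% of all genes), and 0 passed adjustment. That count fell most without CCl4 replicate 1 of either genotype, and it also fell without oil replicate 2 of either. The all-gene count fell in these settings as well. Leaving out any 1 of the other arrays changed the list's count less. Isg15, an antiviral ubiquitin-like protein, read 11.30 and 10.14 in oil and 13.27 and 11.27 after CCl4 in the wild-type, and 13.25 and 13.75 against 11.43 and 12.15 in the knockout. The knockout oil arrays were thus at the level of the higher wild-type CCl4 array.

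Among the genes with the smallest p for the difference between genotypes were Irs2 and Cth. Irs2, an adaptor of insulin signalling, read 8.27 and 8.88 against 7.39 and 6.98 in the wild-type, and 9.89 and 9.34 against 10.33 and 10.27 in the knockout. The wild-type saline arrays of Irs2 read 7.83 and 7.36, the second of them between the CCl4 arrays. Cth, which makes cysteine, read 9.81 and 11.04 against 9.69 and 9.54 in the wild-type, and 12.14 and 11.87 against 13.13 and 13.71 in the knockout. Hid1 read 6.08 and 5.59 against 7.2 and 6.91 in the wild-type and Rpp14, an RNase P subunit, 8.43 and 8.30 against 9.49 and 9.38, both above their saline arrays. Their knockout differences were -0.31 and -0.39.

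Both wild-type CCl4 arrays lay below all 14 other arrays of the series by over 1 log2 unit for 5 of 11338 genes (0.0441%), a rule added after seeing the data, and above them by as much for 0. These 5 were Oat, Cenpm, H2-Ea, H2-T10 and Gm8909. Cenpm is a centromere protein. H2-Ea is a class II MHC gene, while H2-T10 and Gm8909 belong to the class I family, whose copies are alike enough to share probe signal. H2-T10 read 10.17 and 10.79 after CCl4 in the wild-type, and between 12.07 and 13.26 on the other 14 arrays. Gm8909 read 11.67 and 12.06, and between 13.13 and 14.37 on the others. The oil and saline arrays of Gm8909 in the wild-type lie close together, and its difference of -1.89 ± 0.301 had a limma adjusted p of 0.351. Another MHC class I gene, H2-D1, differed by -0.98, while the whole MHC list had a median of -0.14. That median was -0.48 against oil replicate 1 and 0.10 against oil replicate 2, and -0.53 for CCl4 replicate 1 and 0.09 for CCl4 replicate 2. The same limit as for H2-Ea above holds for H2-T10 and Gm8909.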

How the data were processed

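RNA of whole mouse liver was hybridised to 1-colour Illumina arrays. The deposited table gives each probe's linear intensity, without normalization between arrays as far as its values show, with a detection p-value that the authors deposited beside it. GenomeStudio is named in the submitters' processing notes. The authors' normalized intensity table (column medians 190.9 to 191.1, rank correlation 1 with the raw signal) was an alternative only. Its values are linear and aligned between arrays, and whether background was subtracted is unknown.

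Signals were corrected with neqc (normexp on the detection p-values, offset 16), quantile normalized and put on a log2 scale in R 4.3.3 with limma 3.58.1. The filter kept 15411 probes, those detected (p under 0.05) on 2 arrays or more. By the platform annotation 23978 probes had 1 symbol, 0 had several and 1719 had none, and 23962 matched the RefSeq gene table by Entrez number. The brightest kept probe stood for each gene, which left 11338 features, 902 of them without a symbol.

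A model of 8 group means was fitted to 15 samples (7 residual and 3.76 prior degrees of freedom). The 2 knockout saline arrays differed by less than the noise and were averaged: the differences of 848 pairs of probes for the same gene correlated at 0.0256, against 0.492 for the next lowest of the other 119 array pairs. "At least" folds set the brighter group against the higher of the dim probe's own signal and the lowest detected signal of each dim array. Genes were named by rule: the 12 largest non-overlapping differences each way at an unadjusted p under 0.05, up to 5 of smallest p in each list and each way between genotypes, and a fixed set of liver genes, of which Gdf15 and Mki67 were not analysed here. Hsp90b1 and genes named in the closing section were chosen after their values were seen. The comparison, its 42 gene lists and the named genes were chosen with earlier results of these data known, so list counts are descriptions. The fit was tested on simulated data. Alternatives covered background correction, normalization, probe filters, variance settings, a replicate block and leaving out each array.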

Additional observations from a re-analysis of the deposited data

How the results depend on the processing

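In wild-type liver 0 genes were called in the reported analysis and under every alternative except these. Leaving out each array gave 0 to 2, where 2 (Oat, limma adjusted p = 0.0137, and Slc1a2, 0.00884) came without oil replicate 1. The numbers were not taken to pair samples, because same-numbered oil and CCl4 arrays deviated together with r = -0.318 in the wild-type and 0.552 in the knockout. With the replicate block 0 were called, with 1056 at the unadjusted threshold. A crossed replicate block, added after seeing the data, called 8 (Atg3, Ccl25, Gdf2, Lrtm1, Sp5, Tmie, Tnc and Upp2). For the difference between genotypes 0 were called, and 0 to 6 when leaving out each array, the 6 without knockout oil replicate 2. With the replicate block this count was 0 as well, with 459 at the unadjusted threshold. The wild-type count at the unadjusted threshold was 490 without oil replicate 2, 584 without CCl4 replicate 1, 723 without CCl4 replicate 2, 2287 without oil replicate 1 and 668 with only the compared arrays, against 1058. The cause of these shifts was not tested. Of 2049 values of named genes under alternatives, 2035 kept their direction and stayed uncalled and 9 became called. The 5 with the sign turned were, without oil replicate 2, Ccnd1 (-0.30, range when leaving out each array -0.30 to 1.58), G6pc (0.12, range -1.69 to 0.12), Pck1 (0.11) and Alb (0.05, range -1.03 to 0.05), and, without CCl4 replicate 2, Pck1 (0.14, range -1.34 to 0.14). Of 714 list medians under alternatives 24 turned sign, in 14 of 42 lists, 9 of them without oil replicate 2. Dim probes near the lowest detected signals (log2 5.51 to 5.93) give only bounds.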

Other observations

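H2-Bl, a class I MHC gene, and a pair of other genes split the knockout arrays. H2-Bl read 9.86 to 11.16 on the 8 wild-type arrays, and 10.18, 10.22 and 10.32 on knockout oil replicate 1 and the 2 knockout saline arrays. On knockout oil replicate 2 and the knockout CCl4 and AICAR arrays it read 5.67 to 6.63. Wdr46 and Cenpq showed the same split, with Wdr46 at 6.14 to 6.91 on those 5 arrays and 7.99 to 9.04 on the other 11. The 2 knockout oil arrays thus differ at H2-Bl by more than any wild-type pair, and these 3 genes are among the 6 called between genotypes when knockout oil replicate 2 is left out. What sets the split was not tested.

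Both clock genes named by the rule had lower values after CCl4. Nr1d2, a repressor of the clock, read 10.30 and 11.19 in oil, 10.22 and 9.70 in saline, and 9.87 and 9.63 after CCl4. Per3 read 7.30 and 8.34 in oil, 7.12 and 6.94 in saline, and 6.77 and 6.34 after CCl4. The clock list had a median of -0.21 (-0.06 and -0.35 against oil replicates 1 and 2), and the hour of killing was not stated in the labels.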
